A study of Rattus norvegicus with 10 samples.

Results

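The chaperone genes of the rat liver were examined in 10 rats fed a high-fat diet, of which 5 also received mulberry leaves. Members were all genes whose symbol marks a heat shock protein (HSPA, HSPB, HSPD, HSPE, HSPH or HSP90), a J-domain protein (DNAJA, DNAJB or DNAJC), a subunit of the CCT chaperonin or a PDIA protein disulfide isomerase, together with Tcp1, Calr and Canx. A gene was taken only from probe sets annotated to 1 symbol, and was read on the probe set with the highest mean over all 10 arrays. This gave 77 genes of the 14217 on the array, and 67 of the 77 were bright enough to test. The mulberry rats were Wistar/ST rats given dried leaf powder by gastric probe for 7 weeks, in a carboxymethylcellulose suspension and at a daily dose of 500 mg per kg. The control rats, of the same stock and on the same high-fat diet, were assigned 0 mg per kg per day. Animals were fasted overnight before dosing, per the labels' protocols, and their age and sex are not given in the sources used here. No group on a standard diet was analysed here. Each array holds the liver of a separate rat. Intensity is the linear Affymetrix signal of a probe set, and differences are given as mulberry minus control, after log2 of the intensity plus 16, with their standard error.

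Chaperones bind unfolded stretches of other proteins and let them fold, refold or cross a membrane. HSP70 proteins (HSPA) do this in cycles of ATP hydrolysis that J-domain proteins start and exchange factors such as the HSP110 proteins reset, whereas HSP90 proteins act late on selected clients. HSP60 with its lid HSP10 works inside mitochondria, the ring-shaped CCT complex folds actin and tubulin in the cytosol, and disulfide isomerases and the lectin chaperones calreticulin and calnexin work in the endoplasmic reticulum (ER). The liver exports much of the plasma's protein, so its ER chaperones are abundant. Many cytosolic and mitochondrial chaperones are induced by heat shock factors and many ER chaperones by the unfolded protein response. In whole liver, fewer cells of a type and less RNA per cell cannot be told apart.

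Promoters are shown first because the motifs of these 2 responses lie in different members. RefSeq promoter windows of the GRCr8 build, 250 bases before to 50 after a gene's start, were found for 64 of the 77 members. The ER stress response element, searched as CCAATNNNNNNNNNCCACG on both strands, was present in 5 of the 64 windows (7.81%), among them those of Hspa5, Hsp90b1, Calr and Dnajc3. All 5 belong to the 15 ER chaperones with a window. Among all 33469 windows in the table, 22 (0.0657%) held it. The windows of Hspa5 at chr3:38452766-38453065 (plus strand) and Hsp90b1 at chr7:23012244-23012543 (minus strand) are given whole, since these genes make the HSP70 and HSP90 of the ER and were compared as a pair over the rats. Each sequence runs 5′ to 3′ on the gene's strand with the motif in capitals.
Hspa5: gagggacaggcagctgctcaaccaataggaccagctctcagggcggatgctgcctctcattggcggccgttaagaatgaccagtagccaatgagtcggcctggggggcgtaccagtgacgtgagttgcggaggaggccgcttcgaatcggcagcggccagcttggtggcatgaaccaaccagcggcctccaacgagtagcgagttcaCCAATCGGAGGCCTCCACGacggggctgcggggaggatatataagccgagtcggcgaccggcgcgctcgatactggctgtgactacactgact
Hsp90b1: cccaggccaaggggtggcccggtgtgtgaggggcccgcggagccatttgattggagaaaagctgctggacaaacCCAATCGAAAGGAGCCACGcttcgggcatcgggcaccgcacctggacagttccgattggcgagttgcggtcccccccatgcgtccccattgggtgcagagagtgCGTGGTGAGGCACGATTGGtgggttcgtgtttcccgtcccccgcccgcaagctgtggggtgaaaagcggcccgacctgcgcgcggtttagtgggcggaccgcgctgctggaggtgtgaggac
Hsp90b1 held the element in both orientations, 176 and 72 bases before its start. In Calr and Dnajc3 the match, shown with 10 bases on each side, lay 232 bases before the start of Calr and 133 before that of Dnajc3.
Calr: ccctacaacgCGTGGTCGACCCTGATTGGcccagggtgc
Dnajc3: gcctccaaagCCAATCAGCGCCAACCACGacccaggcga
The heat shock element, searched as TTCNNGAANNTTC on both strands, was present in 5 other windows (7.81% of 64), those of Hspd1, Hspe1, Hsph1, Dnaja1 and Cct4, of which none is an ER chaperone. It was present in 267 of all 33469 windows (0.798%). Hspd1 and Hspe1, the genes of HSP60 and HSP10, lie head to head on chromosome 9, and their windows share 211 bases, including the element. The Hspd1 window at chr9:64083988-64084287 (minus strand) shows it as 2 overlapping matches of opposite orientation, and the same letters appear in reverse complement in the window of Hspe1. In Hsph1, which encodes an HSP110 protein, the match began 36 bases before the start.
Hspd1: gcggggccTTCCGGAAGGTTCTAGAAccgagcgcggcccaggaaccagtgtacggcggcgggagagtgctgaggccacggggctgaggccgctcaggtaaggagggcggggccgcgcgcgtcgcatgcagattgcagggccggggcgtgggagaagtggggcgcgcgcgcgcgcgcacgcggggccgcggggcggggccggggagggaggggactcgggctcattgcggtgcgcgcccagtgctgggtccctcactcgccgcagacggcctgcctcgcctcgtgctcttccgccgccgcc
Hsph1: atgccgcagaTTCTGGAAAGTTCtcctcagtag
A match is only a stretch of letters. Factor binding was not measured, and a window without a match says only that these letters are not in it.

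Intensities were similar from array to array. Array medians were 97.5 to 118. Over all probe sets except the control ones, arrays of a group correlated at 0.958 to 0.974 and arrays of different groups at 0.957 to 0.975. The 8 hepatocyte markers were all tested, with summed intensities of 200287 to 248510 in mulberry rats and 201502 to 245194 in control rats.

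No chaperone gene passed the test between mulberry and control livers. With limma and Benjamini-Hochberg adjustment over 18625 probe sets, 0 of 67 members passed an adjusted p of 0.05, and 0 of the 18625 probe sets did (0%). At an unadjusted p under 0.05 there were 0 of 67 members, against 325 of 18625 probe sets (1.74%) and 185 of 10328 genes (1.79%). Of the 325 probe sets, 200 were higher (1.07%) and 125 lower (0.671%) in mulberry rats. The smallest unadjusted p of a member was 0.115, for Cct8, and every member had an adjusted p of 0.9999 by limma. Values of the 2 groups overlapped in each of the 67 members, while they did not overlap in 33 of 10328 genes (0.32%). Of the 67 members, 38 had a higher and 29 a lower mean in mulberry rats, a share of 56.7% higher against 51.3% of all tested genes. The median difference of the members was +0.017, beside +0.0035 over all tested genes. The sign of the median rested on the scaling. With arrays set to a common median, 33 members were higher and 34 lower, with a median of -0.011, beside -0.020 over all tested probe sets. The share higher was then 49.3% of members and 43.6% of all tested probe sets. Quantile normalization gave 39 higher and 28 lower, and array weights gave 41 and 26.

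The intervals set how large a difference could have gone unseen. The 95% confidence interval of the difference lay within 1 log2 unit (2-fold) of 0 in 65 of the 67 members and within 0.5 log2 units (1.41-fold) in 52. The 2 members with wider intervals were Hspa1a, from -1.21 to +1.39, and Dnajc17, from -0.52 to +1.07. In 20 members more than 1 probe set was tested, and in 10 of these the probe sets disagreed in sign, against 1257 of 2805 genes of that kind (44.8%). The plot of differences by class shows these intervals for every tested member.

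**Figure D1:**
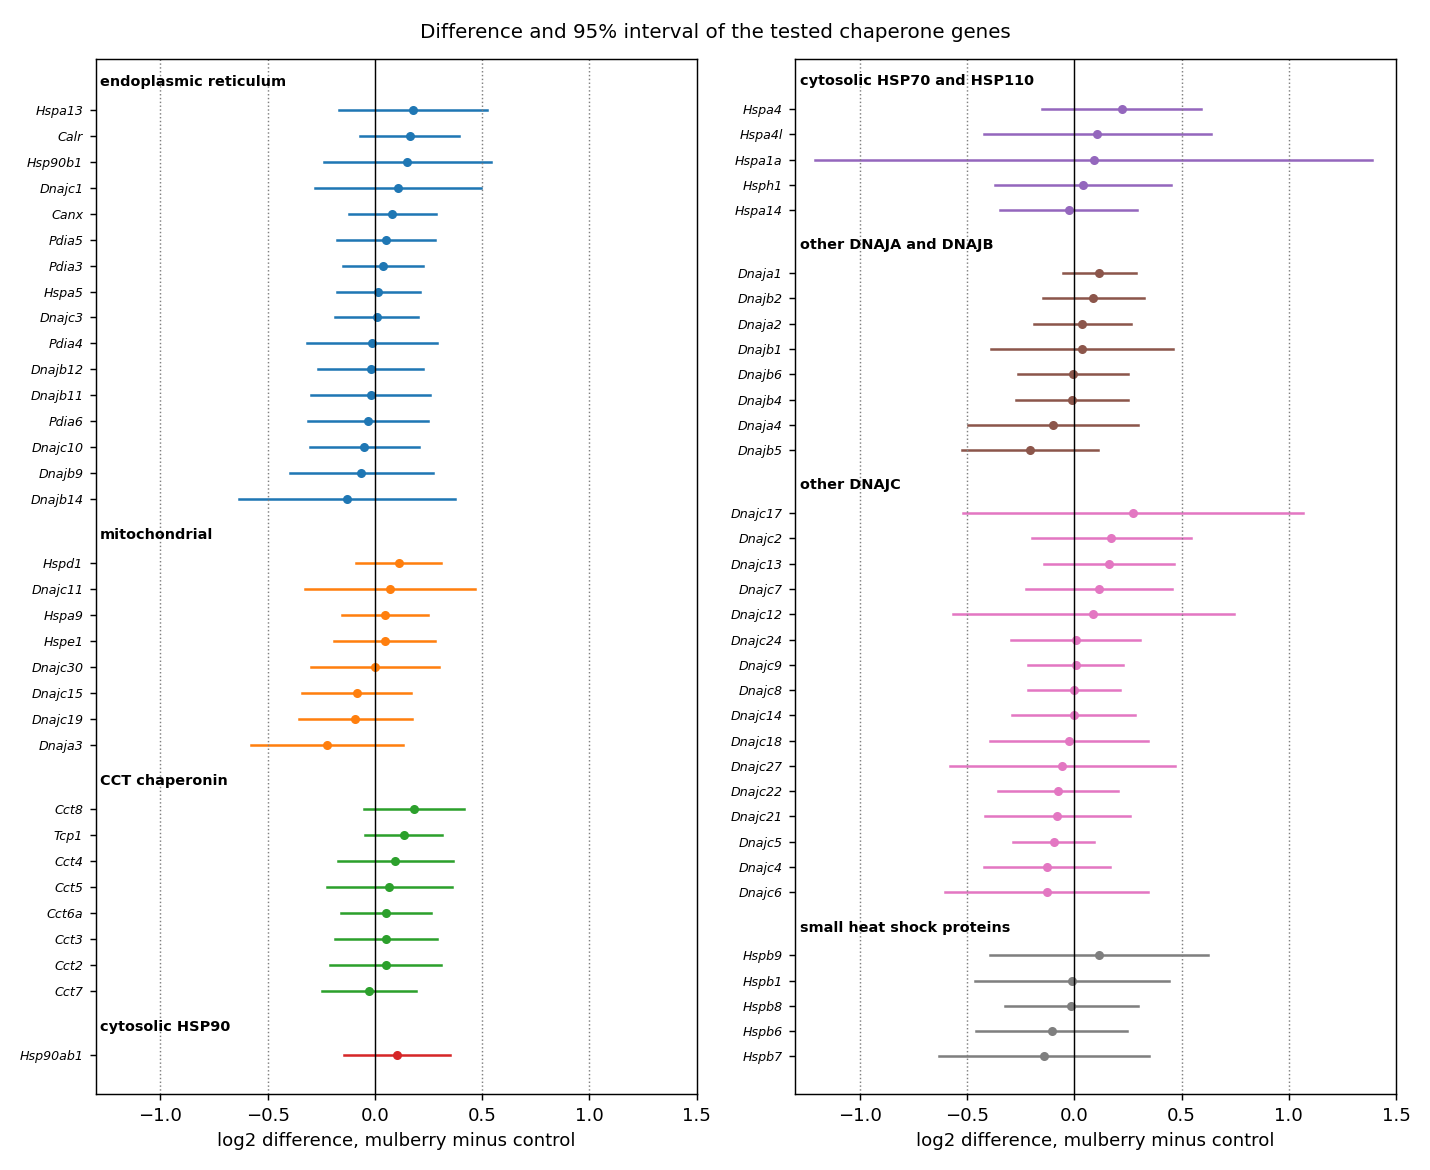
Differences between mulberry and control rats for the 67 tested chaperone genes, grouped by class. The horizontal axis is the log2 difference of intensity, mulberry minus control, points are limma estimates and bars are 95% confidence intervals (n = 5 rats per group). Every interval includes 0, and the widest are those of Hspa1a and Dnajc17.

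In the ER class, 16 of 17 members were tested, and 9 had a higher and 7 a lower mean in mulberry rats. The median difference was +0.012. The counts became 7 higher and 9 lower under the median shift and 11 and 5 under array weights, and stayed under quantile normalization. Hspa5 encodes BiP, the HSP70 of the ER and the classic readout of ER stress. Its intensity was 21357, 19027, 17030, 21456 and 17414 in mulberry rats 1 to 5, against 19233, 16412, 19733, 19222 and 20387 in control rats 1 to 5. The groups overlapped throughout, and the lowest of all 10 values was that of control rat 2. The difference was +0.017 ± 0.09, with a 95% interval from -0.18 to +0.21, and its sign was negative under quantile normalization and under a median shift. Hsp90b1, the ER form of HSP90 known as GRP94, read 9855, 9099.5, 7034, 15508 and 7334 in mulberry rats, against 8636, 7188, 8344, 8551 and 9579 in control rats. Mulberry rat 4 was far above the other 9 rats. The difference was +0.15 ± 0.18, and -0.031 without that rat.

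The lectin chaperones of the ER hold newly made glycoproteins. Calr, calreticulin, had intensities of 8504, 9398, 7992, 9348 and 8882 in mulberry rats, against 6956, 6727, 8102, 9953 and 7981 in control rats. All 5 mulberry values lay above those of control rats 1, 2 and 5 and below that of control rat 4. The difference was +0.16 ± 0.11 (unadjusted p = 0.15 by limma). Canx, the membrane-bound calnexin, averaged 7764 ± 871 in mulberry rats and 7325 ± 639 in control rats (SD, n = 5 each), a difference of +0.081 ± 0.094. Pdia3, the disulfide isomerase that works with both lectins, averaged 10030 ± 692 in mulberry rats and 9787 ± 922 in control rats (SD, n = 5 each), a difference of +0.038 ± 0.085. Pdia4, another isomerase of the ER, had a difference of -0.013 ± 0.14, which was positive under quantile normalization. These means lay within the spread between rats.

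The remaining ER members overlapped between the groups as well. Dnajb9, a J-domain partner of BiP induced by the unfolded protein response, read 3939, 4078, 3499.5, 3244 and 4007 in mulberry rats, against 5733, 2908, 4164, 3463 and 3797 in control rats. Its highest and lowest values were both from control rats, 1 and 2. Its difference was -0.064 ± 0.15, and +0.074 without control rat 1. Hspa13, a microsome-associated HSP70, read 1501, 1935, 1474, 2186 and 1483 in mulberry rats, against 1876, 1422, 1088, 1515 and 1688 in control rats, with mulberry rat 4 highest and control rat 3 lowest. Its difference of +0.18 ± 0.16 was the highest of the class and was +0.066 without control rat 3. The lowest of the class was Dnajb14, a J-domain protein of the ER membrane, at -0.13 ± 0.23. Among the other J-domain partners of BiP, differences were -0.019 for Dnajb11, +0.0079 for Dnajc3, -0.049 for Dnajc10 and +0.11 for Dnajc1. The membrane J-domain protein Dnajb12 was at -0.018, and the isomerases were at +0.054 for Pdia5 and -0.031 for Pdia6.

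**Figure D2:**
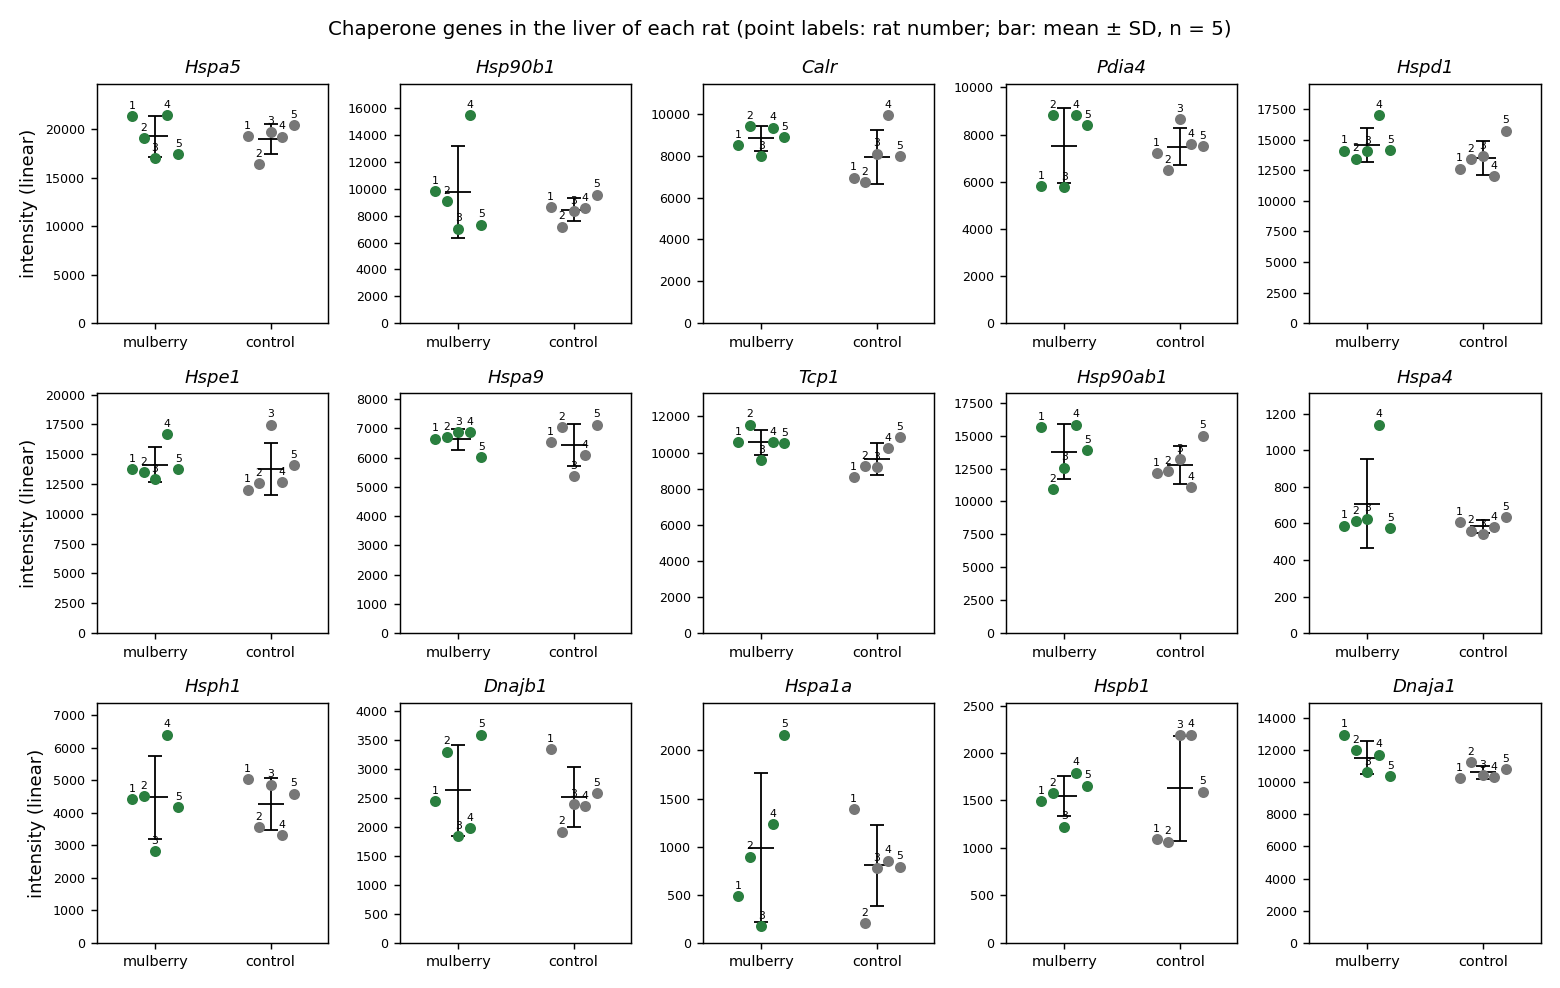
Linear intensity (vertical axes, from 0) of 15 named chaperone genes in each rat, 1 panel per gene, with the 5 mulberry rats left of the 5 control rats, rat numbers at the points and bars for the mean ± SD. The groups overlap in every panel, and Hspa1a spans 173 to 2165 in mulberry rats and 202 to 1394 in control rats.

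All 8 mitochondrial members were tested, and 5 had a higher and 3 a lower mean in mulberry rats, with a median difference of +0.023. The counts became 4 higher and 4 lower under the median shift, and stayed under quantile normalization and array weights. Hspd1, the HSP60 chaperonin, read 14124, 13469, 14091, 17038 and 14146 in mulberry rats, against 12648, 13439, 13642, 12057 and 15756 in control rats. Hspe1, its HSP10 lid, read 13762, 13530, 12911, 16704 and 13725 in mulberry rats, against 12034, 12562, 17477, 12641 and 14096 in control rats. In both genes mulberry rat 4 stood above the other mulberry rats. The differences were +0.11 ± 0.091 for Hspd1 and +0.045 ± 0.11 for Hspe1, and without mulberry rat 4 they were +0.053 and -0.016. Hspa9, mortalin, the HSP70 that pulls proteins into the mitochondrial matrix, read 6651, 6699, 6869, 6875 and 6024 in mulberry rats, against 6532, 7033, 5381, 6099 and 7128 in control rats. It varied little, and its difference was +0.048 ± 0.092. Its J-domain partner Dnaja3 had the lowest difference of all members, -0.22 ± 0.16, with intensities of 1448, 1003, 984, 787 and 1028 in mulberry rats, against 1517, 1358, 1086, 969 and 1164 in control rats. The highest mulberry value, from rat 1, lay within the control range. Without that rat the difference was -0.34, at an unadjusted p of 0.038 and an adjusted p of 0.9999 by limma. The differences of the other 4 were +0.069 for Dnajc11, -0.085 for Dnajc15, -0.091 for Dnajc19, a part of the protein import motor, and +0.00068 for Dnajc30.

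All 8 genes of the CCT chaperonin were tested, and 7 had a higher mean in mulberry rats, with a median difference of +0.060. Cct8 had the smallest unadjusted p of all members, with intensities of 2193, 2532, 2128, 2186 and 2016 in mulberry rats, against 2088, 2159, 1700.5, 1681 and 2139 in control rats. The 2 lowest values were from control rats 3 and 4, and the other 3 control values lay among those of the mulberry rats. The difference was +0.18 ± 0.11, and it stayed between +0.13 and +0.22 when any 1 rat was left out. Tcp1, the first subunit, read 10594, 11542, 9575, 10582 and 10521 in mulberry rats, against 8637, 9263, 9211, 10244 and 10856 in control rats, with 3 control rats lowest. Its difference was +0.13 ± 0.084 (unadjusted p = 0.135 by limma). The other 5 positive subunits were +0.05 for Cct2, +0.052 for Cct3, +0.095 for Cct4, +0.067 for Cct5 and +0.052 for Cct6a. Cct7 was at -0.028. The subunits were read in the same rats, so the 7 are not independent observations. The count of 7 was the same under quantile normalization, a median shift and array weights. It was not repeated without single rats or with other probe sets. The dimmer probe set of Cct6a was at -0.084, opposite in sign to the brighter one, while those of Cct5 and Cct8 were at +0.057 and +0.28.

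Cytosolic HSP90 was represented by Hsp90ab1, the constitutive form. Its intensity was 15641, 10915, 12573, 15831 and 13929 in mulberry rats, against 12131, 12319, 13240, 11101 and 15010 in control rats. The difference was +0.10 ± 0.11, with the lowest value in mulberry rat 2 and the highest in mulberry rat 4. Hsp90aa1, the inducible form, and Hspa8, the constitutive HSP70, were read only by probe sets annotated to several symbols and were not analysed here.

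Among the cytosolic HSP70 and HSP110 members, 5 of 9 were tested, 4 with a higher and 1 with a lower mean in mulberry rats, and a median difference of +0.091. Hspa4, an HSP110-type exchange factor, read 589, 612, 627, 1141 and 575 in mulberry rats, against 607, 561, 542, 579 and 634 in control rats. Mulberry rat 4 was far above the rest, while the other 4 mulberry rats lay within the control range. The difference was +0.22 ± 0.17 with that rat and +0.039 without it. Hsph1, the HSP105 exchange factor, read 4429.7, 4518, 2825, 6402 and 4180.5 in mulberry rats, against 5035, 3553, 4865, 3310 and 4588 in control rats. Its highest and lowest values were both from mulberry rats, 4 and 3, and the difference was +0.039 ± 0.19, or -0.10 without mulberry rat 4. Hspa4l, the third gene of this kind, had a difference of +0.11 ± 0.24, and Hspa14 of -0.026 ± 0.15.

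Hspa1a, the stress-inducible HSP70, varied more between rats than any other member. Its intensity was 483, 897, 173, 1236 and 2165 in mulberry rats, against 1394, 202, 779, 855 and 792 in control rats. The highest value was 12.5 times the lowest among mulberry rats and 6.88 times among control rats. Mulberry rat 3 and control rat 2 were the low ones, so each group held a low rat. The within-group SD was 1.19 log2 units, and 4 of the 1911 genes of like intensity (mean log2 of 9 to 10) had a larger one. The difference was +0.091 ± 0.60, and it moved between -0.33 without control rat 2 and +0.59 without mulberry rat 3. Hspa1a and Hspa1b are near-identical copies, so the probe set may read both, and Hspa1b itself was not analysed here, since its probe sets carry several symbols.

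Of the other DNAJA and DNAJB genes, 8 of 11 were tested, 4 with a higher and 4 with a lower mean in mulberry rats, and a median difference of +0.015 (-0.013 under the median shift). Dnajb1, the heat-inducible HSP40 that serves cytosolic HSP70, read 2438, 3298, 1840.3, 1982 and 3591 in mulberry rats, against 3338, 1919.6, 2388, 2358 and 2584 in control rats. Mulberry rats 2 and 5 and control rat 1 were high and mulberry rat 3 was lowest, and the difference was +0.035 ± 0.20. Dnaja1, a type A J-domain protein of the cytosol, read 12947, 11961, 10611, 11697 and 10369 in mulberry rats, against 10236, 11220, 10424, 10285 and 10785 in control rats. The highest value was from mulberry rat 1, and the difference was +0.12 ± 0.078 (unadjusted p = 0.160 by limma). Dnajb5 read 251, 232, 188, 227 and 256 in mulberry rats, against 270.3, 335, 301, 239 and 208 in control rats. Its difference of -0.21 ± 0.15 was the lowest of the class, and it was +0.15 when the median of the gene's probe sets was taken. The others were +0.039 for Dnaja2, -0.099 for Dnaja4, +0.089 for Dnajb2, -0.0096 for Dnajb4 and -0.0059 for Dnajb6.

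The 16 other DNAJC genes, whose J-domains sit in otherwise unrelated proteins, were all tested. Of these, 7 had a higher and 9 a lower mean in mulberry rats, with a median difference of -0.0023. Dnajc13, an endosomal J-domain protein, read 776, 636, 740.3, 699 and 622 in mulberry rats, against 618, 818, 467, 597 and 634 in control rats. Its difference was +0.16 ± 0.14, and +0.064 without control rat 3, the lowest rat. Dnajc17 had the highest difference of all members, +0.27 ± 0.37, but read 145, 65.1, 129.8, 106 and 49.4 in mulberry rats, against 128, 101, 63.5, 21.4 and 101 in control rats. Control rat 4 was lowest, and without it the difference was -0.042. Dnajc12 is the chaperone of the aromatic amino acid hydroxylases, which include the liver's phenylalanine hydroxylase. It read 2359, 1355, 1618, 1428 and 1051 in mulberry rats, against 859, 2146, 1714, 2245 and 797 in control rats, so that 1 mulberry rat and 2 control rats were high. Its difference was +0.089 ± 0.30, and leaving out 1 rat moved it between -0.12 and +0.25. The lowest of the class was Dnajc6, auxilin, which strips clathrin from vesicles, at -0.13 ± 0.22. The others lay between -0.13 for Dnajc4 and +0.17 for Dnajc2, a J-domain protein of the ribosome.

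Of the small heat shock proteins, which hold unfolded proteins without ATP, 5 of 7 were tested, 1 with a higher and 4 with a lower mean in mulberry rats. The median difference was -0.013. The counts became 3 higher and 2 lower under quantile normalization and under array weights, and stayed under the median shift. Hspb1, known as HSP27, read 1496, 1579.7, 1224, 1794 and 1656 in mulberry rats, against 1091, 1066, 2189, 2194 and 1594 in control rats. The 2 lowest and 2 highest values were all from control rats, and the difference was -0.011 ± 0.21, which was positive under quantile normalization. Hspb7, known mainly from heart and skeletal muscle, read 149, 347, 336, 316 and 331 in mulberry rats, against 377, 247, 243, 379.9 and 356 in control rats. Mulberry rat 1 was far below the rest, and the difference was -0.14 ± 0.23 with it and +0.075 without it. The differences of the other 3 were -0.10 for Hspb6, -0.013 for Hspb8, a partner of Bag3, and +0.12 for Hspb9.

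The 10 members below the intensity threshold of 61.1 were Dnajb3, Dnajb7, Dnajb13, Hspa12a, Hspa12b, Hspa1l, Hspa2, Hspb2, Hspb3 and Pdia2. Several of these are known from other organs, such as Hspa2 and Hspa1l from testis, Hspb2 and Hspb3 from muscle and Pdia2 from pancreas. Their probe sets were too dim to be tested here.

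Single rats stood apart in many chaperones. Mulberry rat 4 had the highest of the 10 values in 15 of the 67 members (22.4%), while it was highest in 11.9% of all tested genes. Those 15 were Hspa5, Hsp90b1, Canx, Dnajb11 and Hspa13 of the ER, Hspd1 of the mitochondria, Cct3 and Cct6a of the chaperonin, and Hsp90ab1, Hspa4, Hsph1, Dnaja4, Dnajc7, Dnajc18 and Hspb9 of the other classes. It was also lowest in 9 members (13.4%), beside 17.0% of all genes. Mulberry rat 3 had the lowest value in 16 members (23.9%), beside 8.73% of all genes, among them Hsp90b1, Hsph1, Hspa1a, Dnajb1, Pdia4, Cct3, Cct5 and Cct7. So 2 rats of the same group lay at opposite ends in Hsp90b1, Hsph1, Dnaja4, Dnajb11, Dnajc18 and Cct3. The arrays of mulberry rats 3 and 4 had the 2 highest medians of the 10, 118 and 114. In the fit with array weights, which counts noisier arrays less, mulberry rat 4 had a weight of 0.62 and mulberry rat 3 one of 1.06. Control rat 3 had the lowest weight of the 10, 0.46, and mulberry rat 4 the next lowest. The part of medians or array noise in the chaperone values was not tested.

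**Figure D3:**
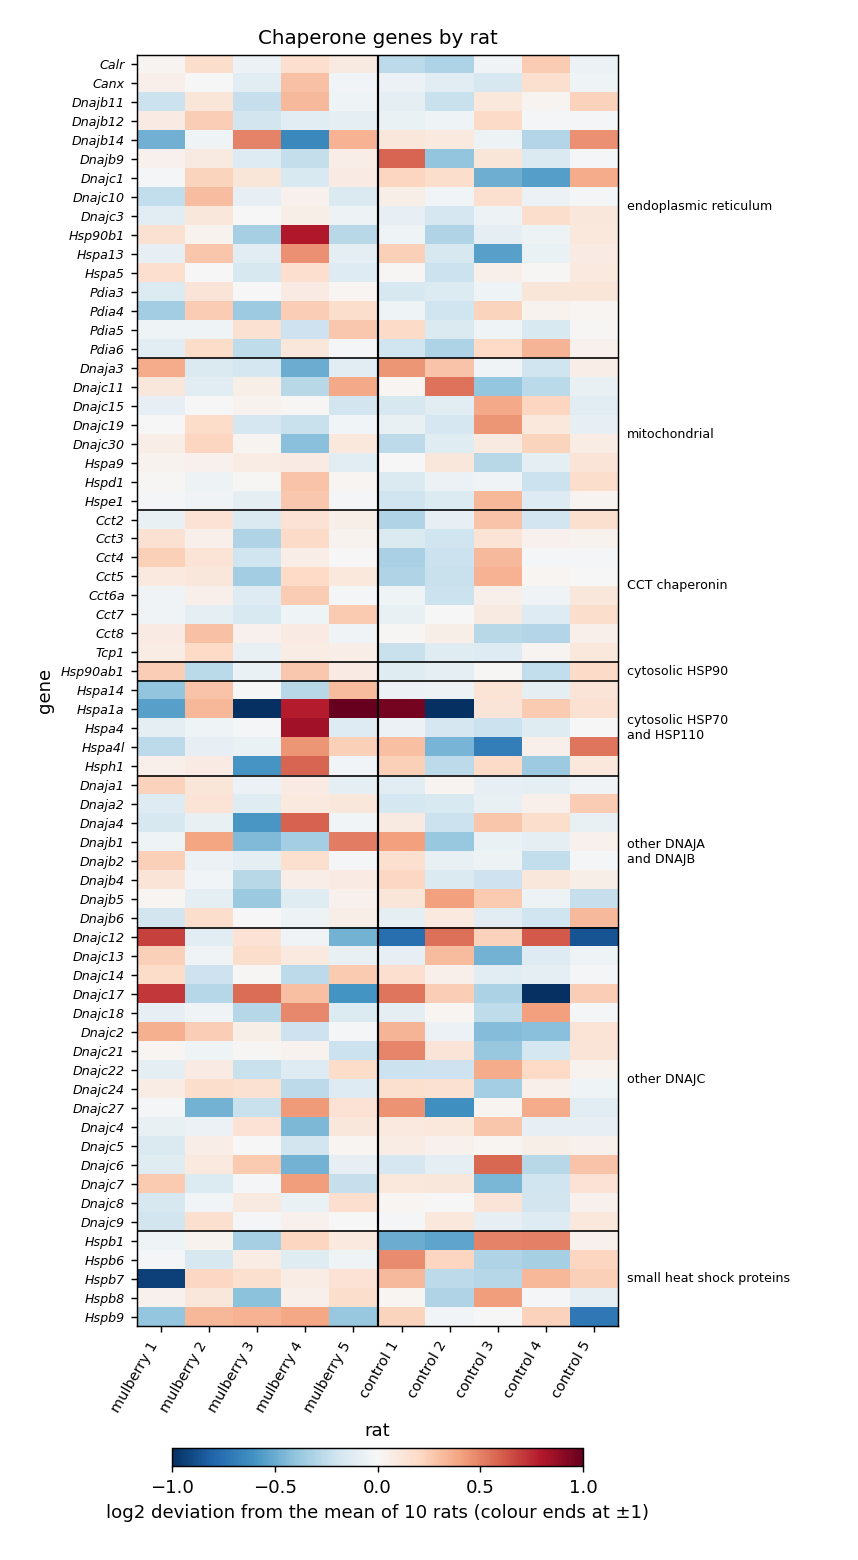
Heat map of the 67 tested chaperone genes (rows, by class) in the 10 rats (columns, mulberry rats left of control rats). Colour gives the log2 deviation from the gene's mean over the 10 rats. Mulberry rat 4 has high values in Hsp90b1, Hspa4 and Hsph1, and mulberry rat 3 low ones in Hspa1a and Hsph1.

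Spread between rats was measured as the within-group SD of log2 values. Its median was 0.21 over the 67 members and 0.24 over all tested genes, whose probe sets were dimmer, with a median log2 of 9.04 against 10.5 for the members. Compared with genes of like intensity, 6 members (8.96%) lay above the 90th percentile of SD, near the 10% that this threshold passes by definition. These were Hspa1a, Dnajb1, Hsph1, Hspb1, Hsp90b1 and Dnajc12. Of the 67 members, 28 lay below the median SD of genes of like intensity.

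**Figure D4:**
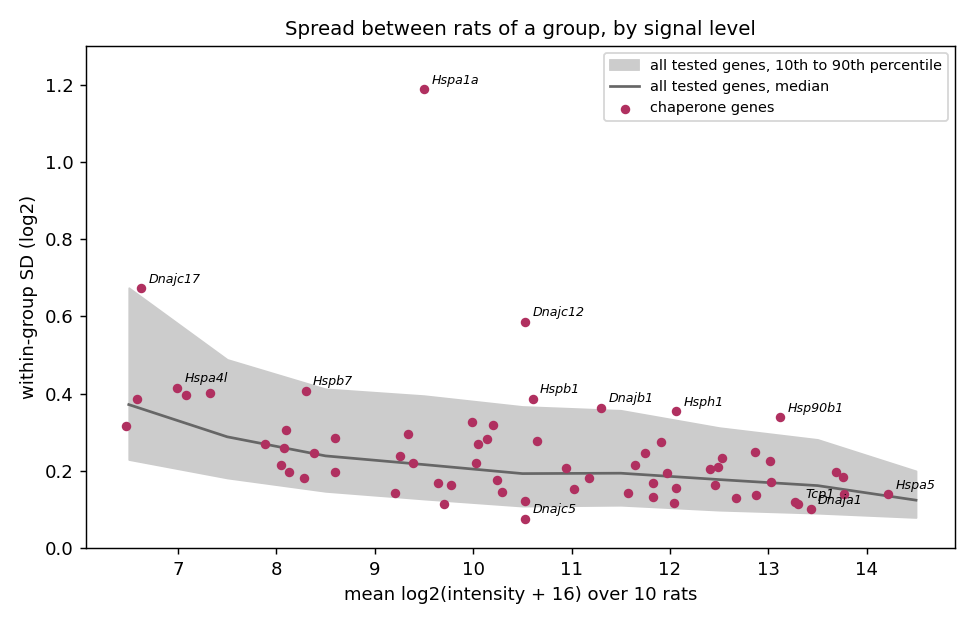
Within-group SD of log2 intensity against mean log2 intensity for the 67 tested chaperone genes, with a line for the median and a band from the 10th to the 90th percentile of all tested genes at that intensity. Hspa1a, at 1.19, lies far above the band, and Dnajc12, Hspb1, Dnajb1, Hsph1 and Hsp90b1 lie above it as well.

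Genes whose products work as partners were compared over the 10 rats. Of 8 chosen pairs, 5 had both members on their own probe sets, and p-values were adjusted over these 5. Hspa5 and Hsp90b1 had r = 0.82 (permutation p = 0.00062, adjusted 0.0031) and Spearman's rho = 0.88 (permutation p = 0.00161, adjusted 0.00805). With the group means removed, r was 0.83 (adjusted permutation p = 0.00425). Without mulberry rat 3 and control rat 2, the rats farthest from the median of Hspa5, r was 0.78 (exact permutation p = 0.0244, adjusted 0.122). It no longer passed the adjusted threshold, although r itself moved little. This repeat rested on 8 rats in place of 10, so the loss of these 2 rats and the smaller number cannot be told apart. Without any 1 rat r was 0.79 to 0.94, and each of these passed, with an adjusted exact permutation p of 0.0435 without mulberry rat 3 and 0.00934 without control rat 2. Under quantile normalization r was 0.69 (adjusted permutation p = 0.106) and rho was 0.87 (adjusted permutation p = 0.0123), so that rho passed and r did not.

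In the other 4 pairs Pearson's r did not pass the adjusted threshold. Calr and Canx, the lectins, had r = 0.66 (permutation p = 0.0359, adjusted 0.0897) and rho = 0.72 (permutation p = 0.0233, adjusted 0.0388). Hspd1 and Hspe1, which share a promoter region, had r = 0.60 (permutation p = 0.0623, adjusted 0.104) and rho = 0.75 (permutation p = 0.0171, adjusted 0.0388). Both of these rho values passed, but not with the group means removed, where rho was 0.42 for Calr and Canx (adjusted permutation p = 0.29) and 0.68 for Hspd1 and Hspe1 (adjusted permutation p = 0.086). Under quantile normalization neither passed, with rho of 0.49 for Calr and Canx and 0.48 for Hspd1 and Hspe1 (adjusted permutation p = 0.27 for each). Cct2 and Tcp1 had r = 0.46 (permutation p = 0.178, adjusted 0.223) and rho = 0.47 (permutation p = 0.178, adjusted 0.223). Hspa5 and Pdia4 had r = 0.27 (permutation p = 0.453, adjusted 0.453) and rho = 0.26 (permutation p = 0.47, adjusted 0.47). Without the 2 rats farthest from the median of the first gene, r was 0.56 for Calr and Canx, 0.28 for Hspd1 and Hspe1, 0.70 for Cct2 and Tcp1, and -0.37 for Hspa5 and Pdia4. Single rats weighed on Hspd1 with Hspe1 and on Cct2 with Tcp1, in both directions. For Hspd1 and Hspe1 r fell to 0.36 without mulberry rat 4, with rho at 0.73. For Cct2 and Tcp1 r fell to 0.19 without control rat 1. Without it r was 0.89 for Hspd1 and Hspe1 (adjusted exact permutation p = 0.00214) and 0.82 for Cct2 and Tcp1 (0.0112). Calr and Canx barely moved, to r = 0.69 (exact permutation p = 0.0366, adjusted 0.0458). That pair passed after adjustment only because the p-values of other pairs fell. All points of a pair share their array and its scaling, and each group alone holds too few rats for a value of its own.

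**Figure D5:**
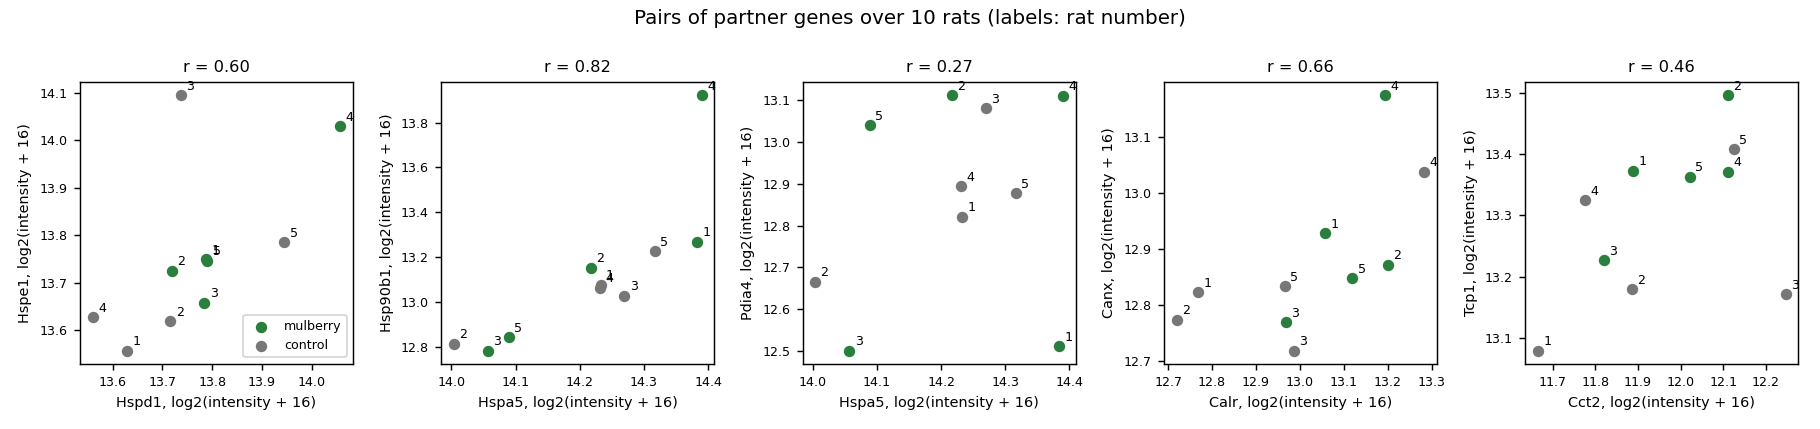
Log2 intensities of 5 pairs of partner genes in the 10 rats, 1 panel per pair and 1 point per rat, with mulberry and control rats in different colours. Hspa5 and Hsp90b1 lie closest to a line (r = 0.82), and mulberry rat 4 lies apart in Hspd1 with Hspe1.

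The wider folding network was read from 5 lists of genes that are no members, some of which are in 2 lists. None of their tested genes passed an unadjusted p of 0.05 by limma. Of 24 tested co-chaperones and prefoldin subunits, 10 had a higher and 14 a lower mean in mulberry rats, with a median difference of -0.018. Stip1, which links HSP70 to HSP90, was at +0.29, with 2028, 1805, 1386, 2984 and 1767 in mulberry rats, against 1669, 1355, 1713, 1542 and 1655 in control rats, and mulberry rat 4 was again highest. Without that rat the difference was +0.13, and without mulberry rat 3 it was +0.40. Cdc37l1, a relative of the HSP90 co-chaperone Cdc37, was at -0.17. Of 11 heat shock factors and their other targets, 8 were higher and 3 lower (median +0.040). Among them Serpinh1, the collagen chaperone, was at +0.18 (+0.071 without control rat 4 and +0.33 without control rat 3). Of 13 mitochondrial co-chaperones and proteases, 5 were higher and 8 lower (median -0.020), among them Tomm20, an import receptor of the outer membrane, at -0.19 (unadjusted p = 0.106 by limma). Timm44, a part of the import motor, was at +0.38 (unadjusted p = 0.203 by limma), with 92.1, 115, 103, 94.4 and 93.0 in mulberry rats, against 145, 58.5, 28.4, 96.8 and 73.3 in control rats. Control rat 3 was lowest, and without it the difference was +0.14, while without control rat 1 it was +0.60.

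Hyou1 and Trib3 had the lowest differences of the ER lists, and neither passed the test. Of 16 other ER folding enzymes, 6 were higher and 10 lower in mulberry rats (median -0.038), and of 19 genes of the unfolded protein response, 7 were higher and 12 lower (median -0.085). Hyou1, the ER's HSP110-type exchange factor for BiP, was at -0.47. It read 339, 203, 256, 594 and 216 in mulberry rats, against 377, 376, 320.1, 542 and 514 in control rats, so that 3 mulberry rats were below every control rat and mulberry rat 4 was above every one. The difference was -0.71 without mulberry rat 4 and -0.34 without mulberry rat 2. Trib3, a target of the stress factors ATF4 and CHOP, was at -0.59, with 341, 299, 841, 708 and 616 in mulberry rats, against 447, 1052, 1721, 467 and 805 in control rats. It was at -0.31 without control rat 3, the highest, and at -0.79 without control rat 1. Uggt1, which checks the folding of glycoproteins, was at -0.21, at -0.063 without mulberry rat 5 and at -0.34 without mulberry rat 4.

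Markers of other cells were read in the same fit. At an unadjusted p under 0.05 by limma there were 0 of 6 endothelial, 0 of 6 stellate, 0 of 4 lymphocyte, 0 of 3 red blood cell and 0 of 2 bile duct genes, and 1 of 5 macrophage genes, Cd68, at +0.39. The summed macrophage intensity was 4222 to 8269 in mulberry rats and 4847 to 8605 in control rats. Both tested neutrophil genes, S100a8 and S100a9, reached it, at differences of -0.62 for S100a8 and -0.77 for S100a9, while Camp was too dim to test. The summed intensity of S100a8, S100a9 and Camp was 117 to 278 in mulberry rats and 273 to 371 in control rats. Of 6 muscle genes Myh1 alone was tested and reached it, at +0.18, and Ckm, Acta1, Myh4, Mb and Tnnt3 were below the intensity threshold. The Myh1 probe set was bright, with means of 15837 in mulberry rats and 13996 in control rats, and whether it reads muscle cells was not tested. All of these had an adjusted p of 0.9999 by limma, and the part of these cells in the chaperone values was not tested.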

How the data were processed

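Livers of 10 rats were profiled on 1 Affymetrix array each. Labelling started with 2 µg RNA, per the labels' protocols. The deposited values of the 31099 probe sets are intensity on a linear scale. MAS5 and affy are named in the submitters' processing notes, without version or role, and every array has a trimmed mean of 500 (2% trimmed at each end). Array number limits the precision. Groups and rat numbers came from the sample titles.

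Probe sets were named from the platform annotation, and all 77 members matched RefSeq by Entrez ID. The 57 control probe sets and those at or under the 40th percentile of mean log2(intensity + 16) were left out, which left 18625. limma 3.58.1 in R 4.3.3 (lmFit, eBayes with a variance trend) compared mulberry with control, two-sided, with Benjamini-Hochberg adjustment over all 18625 and a threshold of 0.05, after a check on simulated data. Correlations used permutation tests of 100000 resamples, two-sided, or exact ones under 10 rats. Members, gene lists and pairs were chosen with earlier results of these data known. The genes described singly were 20 chosen members, of which 17 could be tested, the 10 members with the smallest unadjusted p and the 5 with the largest within-group SD, 27 in all, and of each pathway list the 2 with the smallest p. Other genes are given as class members. Intensities of different probe sets were not compared as RNA amounts. The sequence of 1 promoter match is not reported here.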

Additional observations from a re-analysis of the deposited data

Results flagged for a closer look

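Of 54 groups of 5 rats examined (27 genes in both groups), 6 held 1 rat whose gap to the nearest other rat, as a share of the group's range on the log2(intensity + 16) scale (the ratio below), exceeded Dixon's 95% critical value for 5 samples. The critical value marks about 1 in 20 groups of normally distributed values by chance. The share marked over all tested genes is not given here. The 27 genes include the 5 members with the largest within-group SD, and all were read on the same arrays. The count of 6 is therefore no result about these genes or about a rat. Of the 6, 3 concern mulberry rat 4. Hspa4 was 1141 in that rat, against 575 to 627 in the other mulberry rats (ratio 0.875). Hspd1 was 17038, against 13469 to 14146 (ratio 0.791), and Hspe1 was 16704, against 12911 to 13762 (ratio 0.752). Hspb7 was 149 in mulberry rat 1, against 316 to 347 in the other mulberry rats (ratio 0.886). Hspa9 was 6024 in mulberry rat 5, against 6651 to 6875 (ratio 0.749). Hspa5 was 16412 in control rat 2, against 19222 to 20387 in the other control rats (ratio 0.729).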

How the results depend on the processing

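The differences were recomputed with 10 alternatives (other pseudocounts, filters and scalings, no variance trend, array weights, a replicate block, the median over a gene's probe sets) and without each of the 10 rats. No member passed an adjusted p of 0.05 by limma under any of these, no probe set passed under any but the median over probe sets, where probe sets were not counted, and the lowest adjusted p of a named gene was 0.999. Deviations of same-numbered rats correlated at -0.33 to 0.096, and 1 of 5 correlated best with its own number. No pairing by rat number was seen in these values, although 5 of them cannot exclude one. With the replicate number as a block, 0 members and 0 probe sets passed, and the median member difference was 0.017. Members at an unadjusted p under 0.05 numbered 1 with the median over probe sets (Dnajc11, -0.38) and 0 to 1 when a rat was left out (Dnaja3 without mulberry rat 1, Calr at +0.25 without control rat 4). The sign changed for Hspa5 (-0.0036 under quantile normalization, -0.011 under a median shift), Hspb1 (0.0082 under quantile normalization, 0.11 under array weights) and Pdia4 (0.0091 and 0.016 under the same settings). Array weights also turned Hspa9 (-0.019), Hsph1 (-0.012) and Hspa4l (-0.018), and the median over probe sets turned Dnajb5 (0.15). Without 1 rat, ranges that crossed 0 were -0.035 to 0.059 for Hspa5, -0.015 to 0.086 for Hspa9, -0.10 to 0.19 for Hsph1, -0.031 to 0.25 for Hsp90b1, -0.016 to 0.14 for Hspe1, -0.14 to 0.11 for Hspb1, -0.089 to 0.15 for Dnajb1, -0.17 to 0.074 for Dnajb9, -0.077 to 0.075 for Pdia4, -0.33 to 0.59 for Hspa1a, -0.042 to 0.46 for Dnajc17, -0.12 to 0.25 for Dnajc12, -0.051 to 0.26 for Hspa4l and -0.23 to 0.075 for Hspb7. Of the 27 named genes, 12 kept their sign throughout. The correlation of Hspa5 and Hsp90b1 no longer passed by r under quantile normalization (0.69, with rho still passing). Nor did it pass without the 2 rats farthest from the median (0.78), a repeat whose rats were picked by their values. That repeat gave -0.37 for Hspa5 and Pdia4. Without 1 rat, a repeat chosen after seeing the data, r was 0.79 to 0.94 for Hspa5 and Hsp90b1, passing each time. It was 0.36 to 0.89 for Hspd1 and Hspe1, 0.58 to 0.71 for Calr and Canx and 0.19 to 0.82 for Cct2 and Tcp1. These last 3 pairs passed without control rat 3, Calr and Canx only through the joint adjustment of the pairs. The cause was not tested. Signal near background limits the 10 members left out, and 5 rats a group limit the rest.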

Other observations

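Values of 2 second probe sets, singled out after they were seen, differed from those of the probe set used for the gene. The dimmer probe set of Cct8 had a difference of 0.28 (unadjusted p = 0.0435 by limma), the same direction as the 0.18 of the brighter one. The dimmer probe set of Dnajc11 had a difference of -0.38 (unadjusted p = 0.0415 by limma), opposite in sign to the 0.069 of the brighter one.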
